A study of Mus musculus with 4 samples.

Results

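The genes described are 10 genes of dietary fat absorption and lipoprotein assembly, picked by symbol from the 22632 genes of the expression table: Fabp1, Fabp2, Rbp2, Cd36, Dgat1, Apob, Mttp, Apoa1, Apoa4 and Apoc3. All 10 had 1 row each. They were measured by RNA-seq in 4 cultures of mouse small intestinal organoids, spheres of gut epithelium that crypts form in Matrigel with Egf, Noggin and R-spondin, harvested 24 hours after seeding. Each of the 4 groups had 1 library.

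Yap-/- organoids came from Yapfl/fl;VillinCre mice, in which Cre driven by the Villin promoter deletes the gene of the Hippo pathway co-activator YAP in the intestinal epithelium. Yap+/- organoids, from Yap+/fl;VillinCre mice, carried the same Cre and kept 1 working allele, so they are not wild type. In YapTg organoids doxycycline switches on an added wild-type Yap gene through a Cre-driven rtTA, and they were grown with or without the drug. The Cre that drives rtTA is not named in the labels, and no culture with doxycycline and without the transgene was analysed here, so an effect of doxycycline itself and one of induced Yap cannot be told apart.

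Enterocytes, the absorptive cells of the gut, take up fatty acids, retinol and monoglycerides from the lumen. Small carrier proteins bind these lipids in the cytosol, acyltransferases of the endoplasmic reticulum rebuild triglyceride, and the microsomal transfer protein loads it onto apolipoprotein B. The particle, a chylomicron, picks up exchangeable apolipoproteins and leaves the cell for the lymph. The transcripts of this route are among the most abundant of mature enterocytes, and several are also abundant in liver.

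The values are RPKM (reads scaled to gene length and library size), which can be compared between genes. Library totals recovered from the values lay between 44934170 and 75269003 reads. A gene of 2 kb at 1 RPKM then had 89.9 to 151 reads. The targeted gene followed the labels: Yap1 stood at 3.35 RPKM in Yap-/- organoids, against 16.7 RPKM in Yap+/- organoids, and was at 1039 RPKM in YapTg organoids with doxycycline and 25.1 RPKM without. Of 16 enterocyte markers outside lipid handling, all 16 reached 1 RPKM. With doxycycline 9 were 2-fold lower, as were 5.8% of all genes that reached 1 RPKM in that pair. With 1 library per group there is no replicate check and no p-value. Ranges in parentheses beside folds and ratios are exact (Clopper-Pearson) 95% intervals from the recovered reads, which cover counting error only. In whole cultures, fewer cells of a type and less RNA per cell cannot be told apart.

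Promoters are shown for 3 genes that were lower with doxycycline (Fabp1, Rbp2 and Apoa4) and for 2 that were not 2-fold apart in any comparison (Apoa1 and Apob), because these 5 genes mark the split within the group. They are RefSeq sequences of build GRCm38.p6 and give up to 250 bases before the transcript start, 5′ to 3′, without bases inside the annotated gene. Capitals mark matches, on either strand, to 6 short motifs: the TATA box TATAAA, the core CAAAGT of sites of the nuclear receptor HNF4, the nuclear receptor core AGGTCA, the HNF1 core GTTAAT, the CDX site TTTATG and the TEAD site GGAATG, TEAD factors being the DNA-binding partners of YAP.
Fabp1, chr6:71199629-71199878, strand +: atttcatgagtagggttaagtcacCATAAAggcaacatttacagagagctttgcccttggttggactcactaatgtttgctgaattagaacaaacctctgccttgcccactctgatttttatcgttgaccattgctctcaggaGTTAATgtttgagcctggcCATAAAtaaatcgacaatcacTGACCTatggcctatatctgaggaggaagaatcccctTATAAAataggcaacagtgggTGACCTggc
Rbp2, chr9:98490287-98490536, strand +: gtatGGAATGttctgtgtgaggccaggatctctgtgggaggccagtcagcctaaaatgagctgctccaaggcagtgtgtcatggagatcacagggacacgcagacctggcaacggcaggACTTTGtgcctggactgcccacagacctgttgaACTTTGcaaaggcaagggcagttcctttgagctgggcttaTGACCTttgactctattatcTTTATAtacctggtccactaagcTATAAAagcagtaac
Apoa4, chr9:46240594-46240843, strand +: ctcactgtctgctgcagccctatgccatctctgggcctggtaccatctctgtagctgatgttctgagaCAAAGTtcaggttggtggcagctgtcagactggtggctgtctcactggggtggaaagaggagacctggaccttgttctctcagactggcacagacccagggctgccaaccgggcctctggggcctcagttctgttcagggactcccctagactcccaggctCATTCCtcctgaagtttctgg
Apoa1, chr9:46228380-46228629, strand +: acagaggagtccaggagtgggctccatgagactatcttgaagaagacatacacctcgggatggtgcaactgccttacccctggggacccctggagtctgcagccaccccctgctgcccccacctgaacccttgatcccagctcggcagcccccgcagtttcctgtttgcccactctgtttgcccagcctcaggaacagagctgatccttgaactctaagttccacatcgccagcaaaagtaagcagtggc
Apob, chr12:7977427-7977628, strand +: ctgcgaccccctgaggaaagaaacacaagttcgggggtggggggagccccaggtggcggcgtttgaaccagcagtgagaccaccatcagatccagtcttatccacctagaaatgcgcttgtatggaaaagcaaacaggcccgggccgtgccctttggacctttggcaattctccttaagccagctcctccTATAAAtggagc

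Fabp1 and Rbp2 held 6 matches each, Apoa4 held 2, Apob held 1 and Apoa1 held 0. Among the promoters not shown, Cd36 held 3, Fabp2 held 1 and Mttp held 0. These genes too were at least 2-fold lower with doxycycline. Of the 10 genes, 8 had a promoter in the RefSeq table. The HNF4 core was found in 4 of these 8 (Fabp2, Cd36, Apoa4 and Rbp2) and in 12.6% of all 32851 promoters in the table. The nuclear receptor core was in 3 (Fabp1, Rbp2 and Cd36) against 14.0% of all, and the TATA box in 3 (Fabp1, Rbp2 and Apob) against 12.4%. The CDX site was in 2 (Fabp1 and Cd36) against 10.8%, and the HNF1 core in 1 (Fabp1) against 6.43%. In Cd36 a CDX match and a nuclear receptor core match overlap. The TEAD site was in 2 (Apoa4 and Rbp2) against 12.6% of all promoters. A match is a stretch of letters and no evidence that a factor binds there. Matching was exact, so a site with other letters is not counted, and 0 matches do not show a lack of sites.

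**Figure D1:**
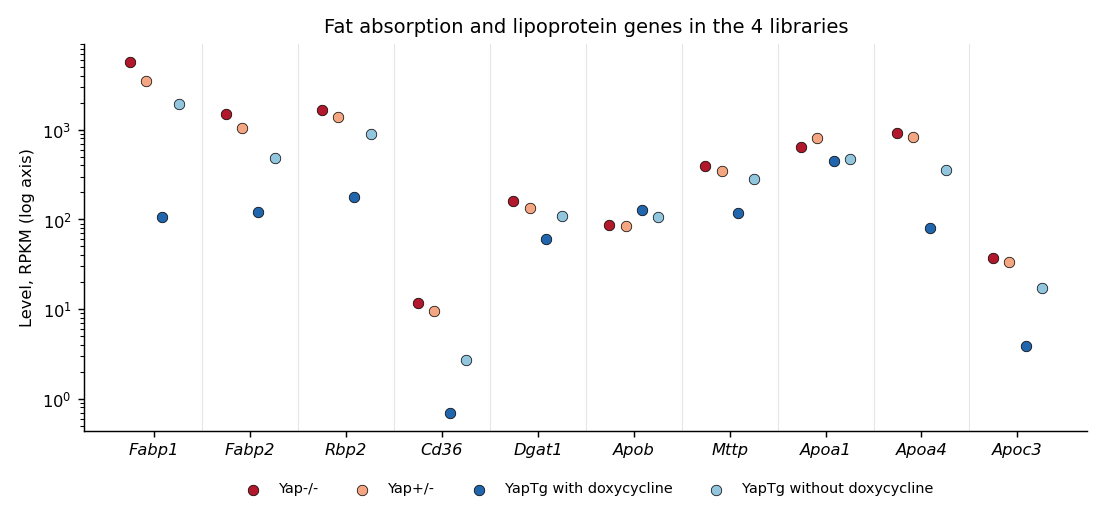
Levels of the 10 genes in RPKM on a log axis; each point is 1 library (Yap-/-, Yap+/-, YapTg with and YapTg without doxycycline, from left to right within a gene). For 8 genes the induced YapTg library is the lowest and Yap-/- the highest, while Apob is highest in the induced library at 126 RPKM and Apoa1 highest in Yap+/- at 811 RPKM.

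The 10 genes together took 1.62% of the reads in genes in Yap-/- organoids and 1.396% in Yap+/- organoids. The share was 0.491% in YapTg organoids with doxycycline and 0.914% without. Fabp1 gave the most of these reads in Yap-/- and Yap+/- organoids, and Apob, a much longer transcript, in both YapTg libraries. The product of Fabp1, the liver-type fatty acid-binding protein, carries fatty acids in the cytosol. By RPKM, Fabp1 ranked 1 among all genes in Yap-/- organoids and 2 in Yap+/- organoids. It ranked 321 in YapTg organoids with doxycycline and 8 without. The other genes spanned a wide range of levels, down to Cd36 with 205 to 3077 reads. For 8 genes the libraries had the same order, with Yap-/- highest, then Yap+/-, then uninduced YapTg, and induced YapTg lowest. Of the 11285 genes that reached 1 RPKM in any library, 14.7% had this order. The exceptions were Apob, highest in induced and lowest in Yap+/- organoids, and Apoa1, highest in Yap+/- organoids.

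The doxycycline pair sets YapTg organoids with induced Yap against uninduced ones, and the drug and induced Yap cannot be told apart in it. In this pair 7 of the 10 genes were at least 2-fold lower with doxycycline, 0 were 2-fold higher and 3 (Dgat1, Apob and Apoa1) were neither. A gene counts here when log2 of (RPKM + 1) differs by at least 1 and the higher library reaches 1 RPKM. All 10 reached that floor, Cd36 through the uninduced library alone. Of all 11108 genes at the floor, 5.8% were 2-fold lower and 5.85% were 2-fold higher. The median log2 ratio was -1.58 over the 10 genes and -0.04 over all genes.

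The cytosolic carriers Fabp1 and Rbp2 stood furthest apart of the 10. Fabp1 was at 106 RPKM with doxycycline and 1938 RPKM without, 18.3-fold lower with doxycycline (95% interval 17.7 to 18.8). Only 0.0270% of all genes had a lower ratio. Rbp2, the cellular retinol-binding protein of enterocytes, was at 177 RPKM with and 897 RPKM without doxycycline, 5.06-fold lower (4.94 to 5.18). Fabp2, the intestinal fatty acid-binding protein, was at 119.7 RPKM with and 479 RPKM without doxycycline, 4.00-fold lower (3.91 to 4.11). The balance of the fatty acid carriers differed, with 0.887 Fabp1 RPKM per Fabp2 RPKM with doxycycline and 4.04 without. That balance was 3.80 in Yap-/- and 3.28 in Yap+/- organoids, so the induced library was the only 1 of the 4 with more Fabp2 than Fabp1.

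The genes of uptake and triglyceride synthesis were lower by less than Fabp1 and Rbp2. Cd36, the scavenger receptor that takes up long-chain fatty acids, was at 0.694 RPKM with doxycycline and 2.74 RPKM without, 3.95-fold lower (3.34 to 4.67). Endothelium and fat cells also express Cd36, and markers of both are given with those of the other cell types. Dgat1, the acyltransferase of the last step of triglyceride synthesis, was at 60.3 RPKM with doxycycline and 109 RPKM without. At 1.81-fold lower (1.77 to 1.85) it did not reach 2-fold.

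The assembly genes parted. Mttp, the large subunit of the microsomal triglyceride transfer protein, was at 117 RPKM with doxycycline and 283 RPKM without, 2.42-fold lower (2.39 to 2.45). Apob, the structural protein onto which Mttp loads lipid, was at 126 RPKM with doxycycline and 107 RPKM without, a ratio of 1.18 (1.17 to 1.195). Per length, Apob had 1.08 times the level of Mttp with doxycycline and 0.377 times without. It had 0.216 times the level of Mttp in Yap-/- organoids and 0.247 times in Yap+/- organoids.

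The exchangeable apolipoproteins parted too, although their genes are neighbours. Apoa1, Apoc3, Apoa4 and Apoa5 follow each other in this order on chromosome 9 in the RefSeq annotation of GRCm38, with no other gene starting between them. Apoa4, an apolipoprotein of chylomicrons made mostly in the gut, was at 79.6 RPKM with doxycycline and 353 RPKM without, 4.44-fold lower (4.34 to 4.54). Apoc3, which slows the clearance of triglyceride-rich particles, was at 3.90 RPKM with doxycycline and 17.3 RPKM without, 4.44-fold lower (3.88 to 5.08). Apoa1, the main protein of high-density lipoprotein, was at 449 RPKM with doxycycline and 471 RPKM without, a ratio of 0.953 (0.938 to 0.967). Apoa1 thus had 5.64 times the level of Apoa4 with doxycycline and 1.33 times without. Apoa5, made mainly in liver, had 1 read in Yap-/- organoids and 0 in the other libraries. In induced organoids Apoa1 was the most abundant of the 10 genes.

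**Figure D2:**
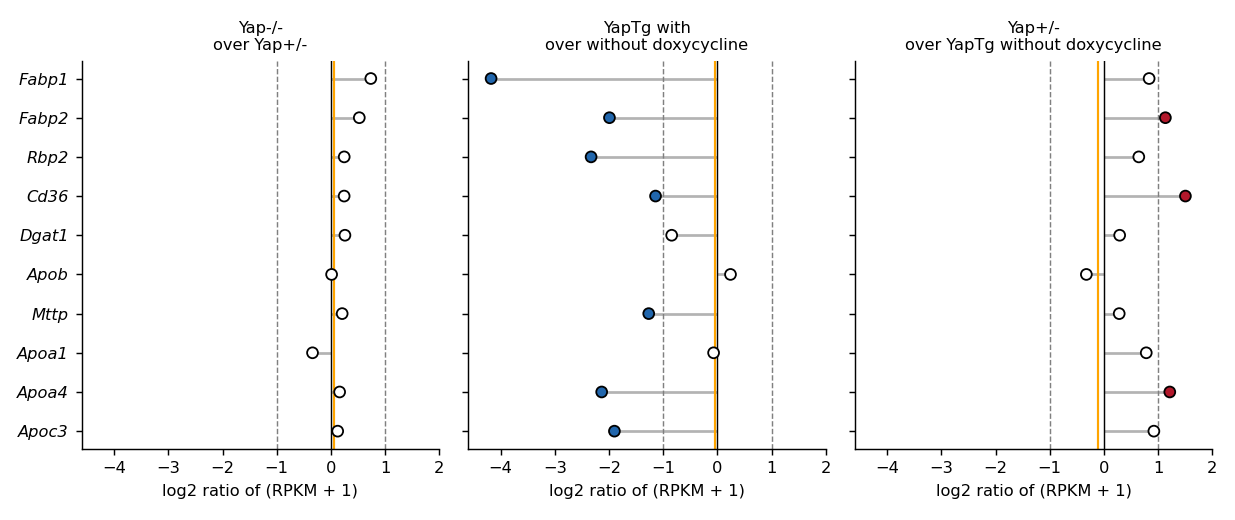
Log2 ratios of (RPKM + 1) for the 10 genes in the 3 comparisons; filled points are at least 2-fold apart (dashed lines at -1 and 1) and the orange line is the median of all genes at the floor. With doxycycline 7 genes lie at or beyond -1 (Fabp1 at -4.18), while none of the 10 passes 2-fold between Yap-/- and Yap+/-.

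The loss of Yap asks which transcripts need the gene. None of the 10 genes was 2-fold apart between Yap-/- and Yap+/- organoids, where 0.906% of all 10710 genes at the floor were (0.336% higher and 0.57% lower). Smaller differences ran mostly upward: 9 of 10 genes had a log2 ratio above 0, as did 65.5% of all genes. The median was 0.23 over the 10 genes and 0.05 over all. The counting interval excluded 1 for 9 genes and included it for Apob. At this depth a difference of a few percent passes counting error, so an interval that excludes 1 says little without replicates.

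The fatty acid carriers stood furthest apart of the 10. Fabp1 stood at 5766 RPKM in Yap-/- organoids, against 3457 RPKM in Yap+/- organoids, a ratio of 1.67 (1.66 to 1.68), and 99.2% of all genes had a lower ratio. Fabp2 stood at 1517 RPKM in Yap-/- organoids, against 1054 RPKM in Yap+/- organoids, a ratio of 1.44 (1.42 to 1.45). Rbp2 stood at 1664 RPKM in Yap-/- organoids, against 1402 RPKM in Yap+/- organoids, a ratio of 1.19 (1.17 to 1.1999). The fatty acid carriers thus differed more than the retinol carrier.

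Uptake, synthesis and assembly genes had ratios of 1.01 to 1.205. Cd36 stood at 11.6 RPKM in Yap-/- organoids, against 9.60 RPKM in Yap+/- organoids (ratio 1.205, 1.14 to 1.27), and Dgat1 at 160.2 RPKM in Yap-/- organoids, against 134 RPKM in Yap+/- organoids (ratio 1.199, 1.18 to 1.22). Mttp stood at 398 RPKM in Yap-/- organoids, against 344 RPKM in Yap+/- organoids (ratio 1.16, 1.15 to 1.17). Apob stood at 85.8 RPKM in Yap-/- organoids, against 85.0 RPKM in Yap+/- organoids, a ratio of 1.01 (0.9996 to 1.02) whose log2 value of 0.01 turned to -0.04 under both other scalings. None of these genes differed between the libraries by more than a ratio of 1.205.

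Among the exchangeable apolipoproteins, Apoa4 stood at 920.0 RPKM in Yap-/- organoids, against 822 RPKM in Yap+/- organoids (ratio 1.12, 1.11 to 1.13). Apoc3 stood at 36.9 RPKM in Yap-/- organoids, against 33.7 RPKM in Yap+/- organoids (ratio 1.09, 1.03 to 1.16). Apoa1 was the only gene of the 10 with a lower value in Yap-/- organoids, at 641 RPKM against 811 RPKM in Yap+/- organoids (ratio 0.791, 0.781 to 0.800). So Apoa1 and its neighbours also parted here, by less than with doxycycline. Counted over both pairs, which share no library, 8 of the 10 genes were higher in Yap-/- than in Yap+/- organoids and lower with than without doxycycline, at any size, as were 42.9% of the 10533 genes at the floor in both pairs. Apoa1 was lower in both pairs. Apob was higher in both as deposited, but under both other scalings it was lower with loss of Yap.

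Yap+/- organoids set against uninduced YapTg organoids show how far the libraries without full loss or induction lie apart. These cultures also differ in mouse line, and each library also serves in one of the comparisons above. Of the 10 genes, 3 (Cd36, Apoa4 and Fabp2) were at least 2-fold higher in Yap+/- organoids and 0 were lower. Of all 10883 genes at the floor, 1.84% were 2-fold apart, 1.11% higher and 0.726% lower, which is 121 and 79 genes, while median-ratio scaling gave 171 higher and 64 lower. The median log2 ratio was 0.81 over the 10 genes and -0.11 over all. Median-ratio scaling moved the ratios of this pair upward by about 0.12, and by less for genes with low RPKM.

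Cd36 stood at 9.60 RPKM in Yap+/- organoids, against 2.74 RPKM in uninduced YapTg organoids, 3.51-fold higher (3.18 to 3.88). Apoa4 was 2.33-fold (2.30 to 2.36) and Fabp2 2.20-fold higher (2.16 to 2.23) in Yap+/- organoids. Apoc3 stood at 1.95-fold and passed 2-fold under both other scalings. Fabp1, Apoa1 and Rbp2 had ratios of 1.78, 1.72 and 1.56, and Dgat1 and Mttp of 1.23 and 1.22. Apob, at 85.0 RPKM in Yap+/- and 107 RPKM in uninduced YapTg organoids, was the only gene with a lower value in Yap+/- organoids (ratio 0.797). Set side by side, Fabp1 had a ratio of 1.78 here and 1.67 with loss of Yap, and Apoa4 had 2.33 here and 1.12 with loss of Yap. Both comparisons use the Yap+/- library.

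**Figure D3:**
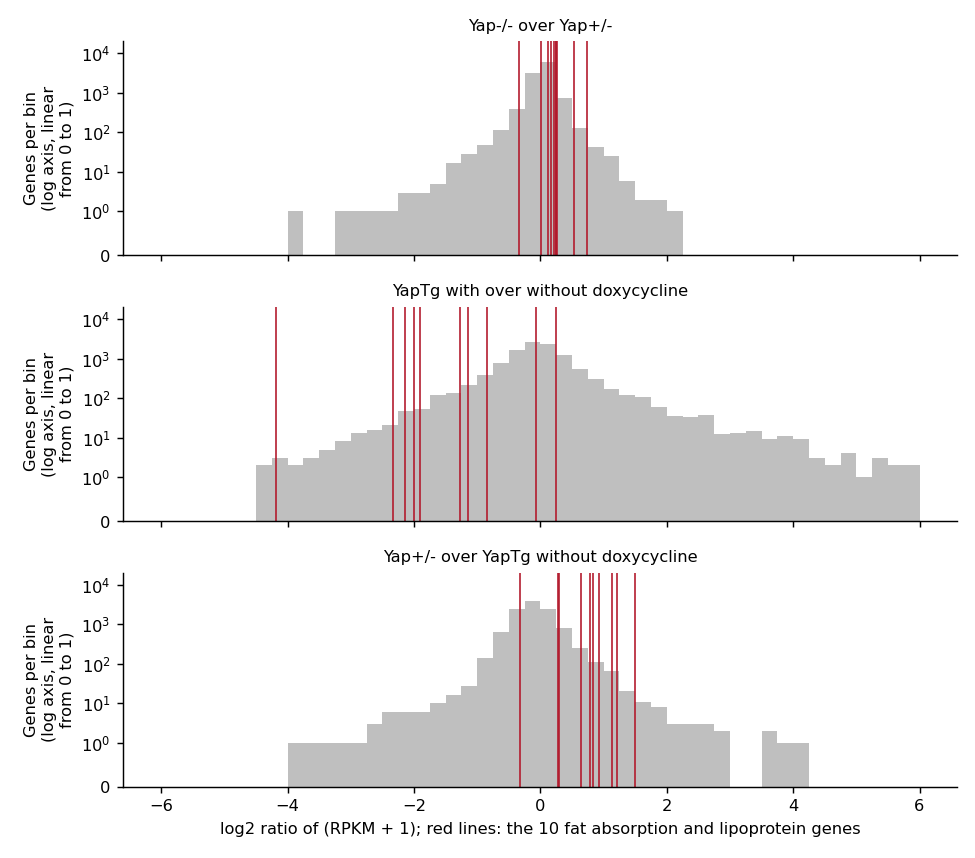
Number of genes at the floor by log2 ratio of (RPKM + 1), in bins of 0.25 on a log axis, for the 3 comparisons; red lines mark the 10 genes. With doxycycline the lines spread from -4.18 (Fabp1) to 0.24 (Apob), against -0.34 to 0.74 for loss of Yap and -0.32 to 1.50 between the Yap+/- and uninduced YapTg libraries.

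Other genes of the same route were read from 8 lists with 89 genes, 88 of which had a row. With doxycycline, 19 of the 79 at the floor were 2-fold lower and 3 were 2-fold higher, with a median log2 ratio of -0.50. Of all genes at the floor 5.8% were lower and 5.85% higher, which also applies to each list below. A list with 1 lower gene lies near that share. Between Yap-/- and Yap+/- organoids 1 of 79 was lower and 2 were higher, with a median of 0.14. Of all genes at the floor in that pair, 0.57% were lower and 0.336% higher.

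Triglyceride synthesis had 1 of 11 genes 2-fold lower with doxycycline and 0 higher (median -0.22). It was Mogat2, the monoacylglycerol acyltransferase of the gut, at 16.6 RPKM with and 71.4 RPKM without doxycycline, 4.31-fold lower (4.11 to 4.53). Chylomicron assembly and secretion had 1 of 13 lower and 0 higher (median -0.50), namely Apoc2, the cofactor of lipoprotein lipase, at 21.5 RPKM with and 76.9 RPKM without doxycycline. P4hb, which encodes the small subunit of the transfer protein and was named after its values were seen, was at 355 RPKM with and 572 RPKM without. The partner of Mttp thus stayed within 2-fold.

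Lipid uptake and activation had 1 of 9 genes lower and 0 higher with doxycycline (median -0.71). It was Slc27a2, an acyl-CoA synthetase of long fatty acids, at 4.99 RPKM with and 13.5 RPKM without. Of 6 other carriers at the floor 2 were lower, Fabp6 and Scp2, and 1 was higher. Fabp6, the bile acid carrier of the ileum, was at 3.13 RPKM with and 86.7 RPKM without doxycycline, and Scp2, a sterol carrier, at 8.82 RPKM with and 22.3 RPKM without. Fabp3, the heart-type relative of Fabp1, was the higher one, at 2.63 RPKM and 163 reads with doxycycline and 0.216 RPKM and 8 reads without (12.2-fold, 6.03 to 28.7). Fabp3 reached the floor through the induced library alone, and with a pseudocount of 5 neither it nor Scp2 passed 2-fold, so 1 of 6 was lower and 0 higher.

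Sterol and retinoid handling had 6 of 9 genes lower and 0 higher (median -1.10). With a pseudocount of 5 it was 3 of 9 (median -0.51). Rdh7, a retinol dehydrogenase, was at 2.71 RPKM with doxycycline and 23.1 RPKM without, 8.52-fold lower (7.59 to 9.59). Dhrs3, which reduces retinal, was 5.80-fold lower. Lrat, which esterifies the retinol that Rbp2 carries, was 4.14-fold lower, at 0.690 RPKM with and 2.86 RPKM without doxycycline. In this pair Lrat reached the floor through the uninduced library alone. Abcg8, a subunit of the sterol pump that returns plant sterols to the lumen, was at 9.34 RPKM with and 28.9 RPKM without doxycycline. Fatty acid oxidation had 2 of 11 lower (Ehhadh and Acaa2, 2.81-fold and 2.50-fold) and 0 higher, with a median of -0.44.

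Lipid droplet genes differed in sign from the other lists in their median, 0.29, with 1 of 8 higher and 1 lower. Plin2, which coats lipid droplets, was at 29.4 RPKM with doxycycline and 14.1 RPKM without, 2.08-fold higher (1.99 to 2.18). Aadac, a lipase of the endoplasmic reticulum, was at 35.4 RPKM with doxycycline and 92.2 RPKM without.

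**Figure D4:**
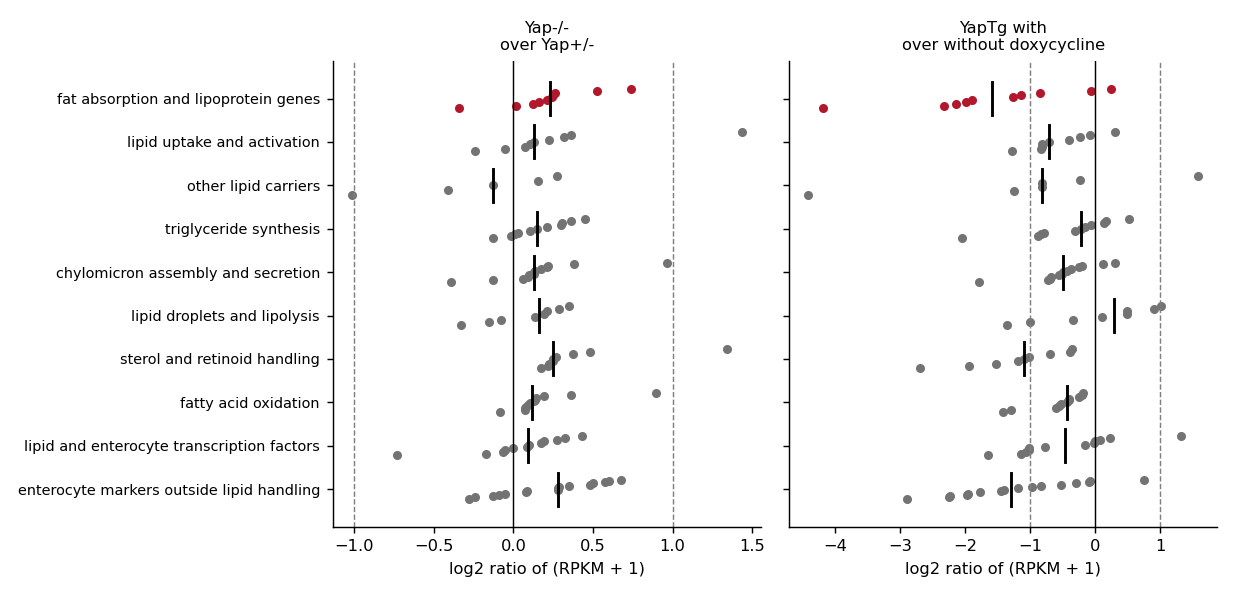
Log2 ratios of (RPKM + 1) of the 10 genes (red) and of the 8 pathway lists and the enterocyte markers (grey), each point a gene at the floor and each black bar the list's median, with dashed lines at 2-fold; the panels differ in scale. With doxycycline the plotted medians run from -1.58 (the 10 genes) and -1.29 (enterocyte markers) to 0.29 (lipid droplets and lipolysis), and for loss of Yap from -0.13 to 0.28.

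Of 12 transcription factors of lipid metabolism and enterocytes, 5 were lower and 1 higher with doxycycline. The count was 3 lower and 1 higher after median-ratio scaling, and 1 lower and 0 higher with a pseudocount of 5. Hnf4g, a nuclear receptor of the intestinal epithelium, was at 20.6 RPKM with doxycycline and 66.9 RPKM without, 3.25-fold lower (3.15 to 3.35). Its relative Hnf4a, named after its values were seen, was at 196 RPKM with and 187 RPKM without, so Hnf4a had 9.52 times the level of Hnf4g with doxycycline and 2.79 times without. Creb3l3, a membrane-bound factor of lipid metabolism, was at 15.96 RPKM with and 36.5 RPKM without. Ppara, the fatty acid receptor of oxidation genes, was at 4.15 RPKM with and 9.74 RPKM without doxycycline, and Nr1h3 and Nr5a2 were the other lower ones, just past 2-fold. Pparg, the fatty acid receptor of fat cells, was the higher one, at 17.8 RPKM with doxycycline and 6.56 RPKM without (2.71-fold, 2.47 to 2.96).

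With loss of Yap, 3 genes of the 8 lists passed 2-fold. Scarb1, a receptor for lipoproteins and carotenoids, stood at 32.2 RPKM in Yap-/- organoids, against 11.3 RPKM in Yap+/- organoids, and Bcmo1, the carotene-cleaving enzyme, at 124.9 RPKM in Yap-/- organoids, against 48.6 RPKM in Yap+/- organoids. Fabp6 was lower, at 5.77 RPKM in Yap-/- organoids, against 12.7 RPKM in Yap+/- organoids. All 3 also parted Yap+/- from uninduced YapTg organoids: Bcmo1 was 20.6-fold and Scarb1 2.34-fold higher and Fabp6 6.85-fold lower in Yap+/- organoids. In that pair G0s2 and Rdh7 were the other genes past 2-fold, 2.74-fold and 2.23-fold higher in Yap+/- organoids. Of the 78 list genes at the floor there, 4 were higher and 1 lower, against 1.11% and 0.726% of all genes at the floor. Fabp6 is a marker of the ileum, and the segment from which crypts were taken is not given beyond small intestine.

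Markers of enterocytes outside lipid handling moved in the same pair as the 10 genes, and their part in the result was not tested. With doxycycline 9 of 16 were lower and 0 higher (median -1.29), against 5.8% and 5.85% of all genes at the floor. Their summed level was 1353 RPKM with doxycycline and 2226 RPKM without, and 2662 RPKM in Yap-/- organoids, against 2266 RPKM in Yap+/- organoids. Sis, sucrase-isomaltase, reached the highest level of the list, in Yap-/- organoids, and was at 129.7 RPKM with and 612 RPKM without doxycycline. Stem cell markers were also lower with doxycycline in 4 of 5 genes, with a median of -1.62 and a summed level of 53.6 RPKM with and 521 RPKM without, and Olfm4 the highest at 21.96 RPKM with and 424 RPKM without. Olfm4 was also 2.06-fold higher in Yap-/- organoids, at 501 RPKM against 244 RPKM in Yap+/- organoids, a difference that did not reach 2-fold under either other scaling. Among the 7 enterocyte markers that did not pass 2-fold with doxycycline was the brush border gene Vil1, at 208 RPKM with and 222 RPKM without. The Vil1 promoter drives the Cre of the Yap-/- and Yap+/- organoids, while the Cre of YapTg organoids is not named in the labels.

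Markers of cells that could add these transcripts from outside the epithelium were mostly low. Of 6 endothelial markers 0 reached 1 RPKM in any library, and their summed level was 0.126 to 0.239 RPKM with Pecam1 the highest. Of 6 adipocyte markers only Cidec reached 1 RPKM, at 38.8 RPKM with and 6.91 RPKM without doxycycline, and Lep and Fabp4 were at 0 in all 4 libraries. Cidec encodes a lipid droplet protein. Of 5 hepatocyte markers only Ttr, which encodes a plasma carrier of thyroid hormone and retinol-binding protein, reached 1 RPKM. It moved with most of the 10 genes, at 0.262 RPKM with and 2.79 RPKM without doxycycline, and at 5.23 RPKM in Yap-/- organoids, against 2.48 RPKM in Yap+/- organoids. Its part in the result was not tested, and Ahsg was at 0 in all 4 libraries. Immune markers summed to 3.58 to 7.40 RPKM with Cd52 the highest. Stromal markers summed to 0.391 to 3.46 RPKM with Vim the highest, at 0.381 RPKM with and 2.26 RPKM without doxycycline.

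The 6 genes whose 3 log2 ratios lay nearest to the medians of the 10 genes, among 7979 other genes at 5 RPKM or more in a library, were Cbr1, Gstm2, Aldh1a1, Nat8, Akr1c12 and Cyp2c69. The Euclidean distance over the 3 ratios from 4 libraries was 0.119 for Cbr1, a carbonyl reductase, and 0.221 for Cyp2c69, a cytochrome P450. Aldh1a1, which oxidises retinal to retinoic acid, was at 595 RPKM in Yap-/-, 512 RPKM in Yap+/-, 96.6 RPKM in induced and 274 RPKM in uninduced YapTg organoids. Gstm2, Akr1c12 and Cyp2c69 belong to families of close relatives that can share reads.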

How the data were processed

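The deposited table gives 1 value per gene and library. The deposited values were read as RPKM because the 4 columns (0 left unused) are not whole, sum to 255064 to 302835 and give whole reads per gene length; the file's header names no unit. Tools listed in the submitters' processing notes are TopHat 1.4.1, CASAVA 1.8 and FastQC, and the build listed is mm9. For the counter, annotation and strand setting, the sources used here say nothing, so overlapping antisense reads cannot be told apart.

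RPKM was used as deposited. Library totals were solved from low values and GENCODE M21 exon lengths (GRCm38); 760 to 930 low genes per library gave the same total. Each gene then took a length that makes its reads whole within 0.002 in all 4 libraries. The M21 length did so for 6743 of 17378 genes above 0 and for 6 of the 10 genes described; elsewhere the length was searched for, so that reads being whole is no check there. The length rule and tolerance were settled after seeing the data, as the last of 4 settings tried, against simulated reads and a count of genes whose reads share a common factor. The rule itself prefers short lengths, which lowers that count, so the count is no independent check of the rule. In the simulated reads a smaller share of genes departed from the M21 length than here. Reads in genes came to 68.4% to 72.6% of the totals here and to 73.8% to 92.5% under the other settings, Rbp2 was the 1 of the 10 genes whose reads, and so its interval, changed, and the shares of reads moved as given in the closing section. RPKM and calls do not use the recovered reads. Folds were computed from them but equal the ratio of the RPKM values, because the same gene length enters both libraries. A pseudocount of 1 RPKM understates differences of low genes; folds in the text use none. The steps were tested on simulated reads (Python 3.11.15, scipy 1.17.1).

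The 10 genes and the lists were chosen with earlier results of these data known. Named were all 10 genes, up to 4 genes past 2-fold per pathway list and comparison, the highest gene of each marker list, the 6 nearest genes and Yap1; Vil1, Apoa5, Ahsg, Lep and Fabp4 were named after their values were seen, as were Nr1h3 and Nr5a2. Mia3 had no row.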

Additional observations from a re-analysis of the deposited data

How the results depend on the processing

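No paired analysis was possible because each group has 1 library. The count of the 10 genes past 2-fold stayed within 1.5 times under other pseudocounts, floors and scalings, with ranges of 0 to 0 for loss of Yap, 6 to 7 with doxycycline and 2 to 4 between Yap+/- and uninduced YapTg. At 4-fold the counts were 3 with doxycycline (2.81% of all genes) and 0 between Yap+/- and uninduced YapTg (0.322%). At 1.5-fold they were 1 for loss of Yap (2.91% of all genes) and 7 between Yap+/- and uninduced YapTg (8.10%). Cd36 lost its 2-fold call in both comparisons that use the uninduced YapTg library with a pseudocount of 5, which shrinks low values.

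The median log2 ratio of the 10 genes for loss of Yap was 0.19 with a pseudocount of 5, 0.17 and 0.18 after median-ratio and upper-quartile scaling and 0.21 without Fabp1. With doxycycline it was -1.92 and -1.28 with pseudocounts of 0.1 and 5, -1.90 with a floor of 5 RPKM, -1.54 after median-ratio scaling and -1.27 without Fabp1. Between Yap+/- and uninduced YapTg it was 0.79 with a pseudocount of 5, 0.93 and 0.91 under the scalings and 0.78 without Cd36. Of 179 values of single genes under alternatives, 2 changed sign, both Apob. Only the values under the other scalings could change sign, because a pseudocount or a floor leaves the sign as it is.

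The share of summed RPKM was 3.70% in Yap-/-, 2.96% in Yap+/-, 0.486% with and 1.68% without doxycycline, and without Fabp1 the read shares were 1.18%, 1.12%, 0.483% and 0.762% in the same order. Of the library total, chosen after seeing the data, the shares were 1.18%, 0.955%, 0.346% and 0.646%. The other settings tried for recovering reads, all after seeing the data, gave 1.39%, 1.19%, 0.393% and 0.782% with the nearest fitting length at either tolerance (0.05 or 0.002) and 1.51%, 1.29%, 0.458% and 0.851% with a length spread of 0.35 in place of 0.6. The order of the 4 libraries was the same in each of these settings. Counts for the other lists, also added after seeing the data, were 0 in both settings in 81 of 180 cases. Of the other 99, 75 stayed within 1.5 times. With doxycycline and a pseudocount of 5, the lists past 2-fold also shrank to 0 of 9 uptake genes, 1 of 8 lipid droplet genes and 2 of 5 stem cell markers. The share of all genes past 2-fold shrank too, to 6.06% from 11.6%. With a pseudocount of 0.1 the lists grew to 2 of 9, 4 of 8 and 5 of 5, and the share of all genes to 15.8%. Each group has 1 library, so the spread between cultures is not known.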
